A study of Mus musculus with 30 samples.

Results

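Id proteins and the basic helix-loop-helix (bHLH) factors around them were examined in RNA-sequencing of C2C12 myotubes, multinucleated muscle fibres grown from a mouse myoblast line. Members were chosen by name, 10 of the 55487 genes in the count table, with earlier results of these data known. The other gene lists below were chosen in the same way. Shares of all genes set beside counts of listed genes are therefore description only. The members are the inhibitors Id1, Id2, Id3 and Id4, the E proteins Tcf3, Tcf4 and Tcf12, and the repressive bHLH factors Twist1, Twist2 and Msc. The question was how the mRNAs of these genes differed between fed, serum-deprived and treated myotubes. All 30 libraries came from wild-type C2C12 cells differentiated for 4 days and then held for 4 days in 1 of 5 conditions, with 6 libraries each and 8 days in culture in all. The conditions were 2% horse serum (2% HS), serum deprivation (SD), and serum deprivation with metformin at 100 nM (MET), leucine at 500 nM (LEU) or both (MET+LEU). A single immortal line stands for muscle here, and nothing in the labels says that replicates were separate cultures, so p-values measure only the spread between these samples, which may be technical.

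bHLH factors bind DNA as pairs. Muscle-specific members such as MyoD and myogenin pair with the widely expressed E proteins and bind E-boxes in muscle promoters. Id proteins carry the dimerisation region but lack the basic stretch that touches DNA, so an E protein held by an Id protein cannot bind. Twist factors and musculin (Msc) limit muscle differentiation by competing for E proteins or for E-boxes, and Id genes are classical targets of bone morphogenetic protein (BMP) signalling through SMADs.

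The coding region of the 4 Id genes is shown because it defines the family and because near-identical genes could share reads. Each line gives the coding strand of the same stretch of the helix-loop-helix region, which lies within 1 coding exon of each gene (GRCm38 coordinates: Id1 at chr2:152736518-152736640 on the plus strand, Id2 at chr12:25095780-25095902 on the minus strand, Id3 at chr4:136144002-136144124 on the plus strand, and Id4 at chr13:48261693-48261815 on the plus strand). Capitals mark the 70 of 123 bases that are the same in all 4 genes.
Id1: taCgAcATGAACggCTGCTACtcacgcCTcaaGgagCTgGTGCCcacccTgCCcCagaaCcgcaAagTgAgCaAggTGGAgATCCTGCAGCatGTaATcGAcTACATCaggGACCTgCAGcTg
Id2: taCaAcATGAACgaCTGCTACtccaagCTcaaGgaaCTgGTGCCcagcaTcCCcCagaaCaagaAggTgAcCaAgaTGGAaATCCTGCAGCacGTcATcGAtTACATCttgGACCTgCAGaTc
Id3: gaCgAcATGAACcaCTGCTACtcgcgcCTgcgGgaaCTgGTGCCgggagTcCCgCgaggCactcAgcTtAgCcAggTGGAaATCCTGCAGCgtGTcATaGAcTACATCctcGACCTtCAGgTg
Id4: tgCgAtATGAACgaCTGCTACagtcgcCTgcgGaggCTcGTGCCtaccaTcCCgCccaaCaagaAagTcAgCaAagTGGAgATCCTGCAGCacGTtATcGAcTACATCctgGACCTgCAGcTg

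Id1 and Id2 were the most alike pair over this stretch, with 80.5% of bases identical, and each pair with Id3 was at 70.7%. The longest identical run between any 2 Id coding sequences was 17 bases (Id1 with Id4), and between Twist1 and Twist2 it was 23 bases, against sequencing reads of 150 bases. Exons of genes on the opposite strand overlap exons of Id4 (82 bases with A330033J07Rik and 171 with Gm49291), Twist2 (1477 bases with Gm29100) and Msc (539 bases with Gm9947). The strand setting of the counting is not given in the sources used here, so reads of these 3 genes may not be separable from those of their antisense partners.

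Libraries held 12784960 to 19604103 counts, and 8 of the 10 genes passed the filter on low counts. MET+LEU replicate 6 stood apart from the other libraries: 5.85% of its counts lay on nuclear rRNA and 7.64% on mitochondrial rRNA, against at most 1.96% and 0.76% elsewhere. Its expression values also fell most steeply with transcript GC content. The muscle gene Myog (myogenin) had a mean of 1032 CPM (library-size normalised counts, scaled by TMM) in 2% HS and 1070 CPM in SD. Other muscle genes differed between these conditions in both directions, with Ckm at 308 and 156 CPM and Des at 1734 and 1900 CPM. Markers listed for other cell states differed too. All 7 tested fibroblast-type markers rose in SD vs. 2% HS, beside 13.9% of all tested genes. Their summed level was 3315 to 3620 CPM in 2% HS and 5819 to 6146 CPM in SD. Thy1, the remaining fibroblast-type marker, did not pass the filter. Their part in the results below was not tested. In bulk libraries, fewer cells of a type and less RNA per cell cannot be told apart.

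**Figure D1:**
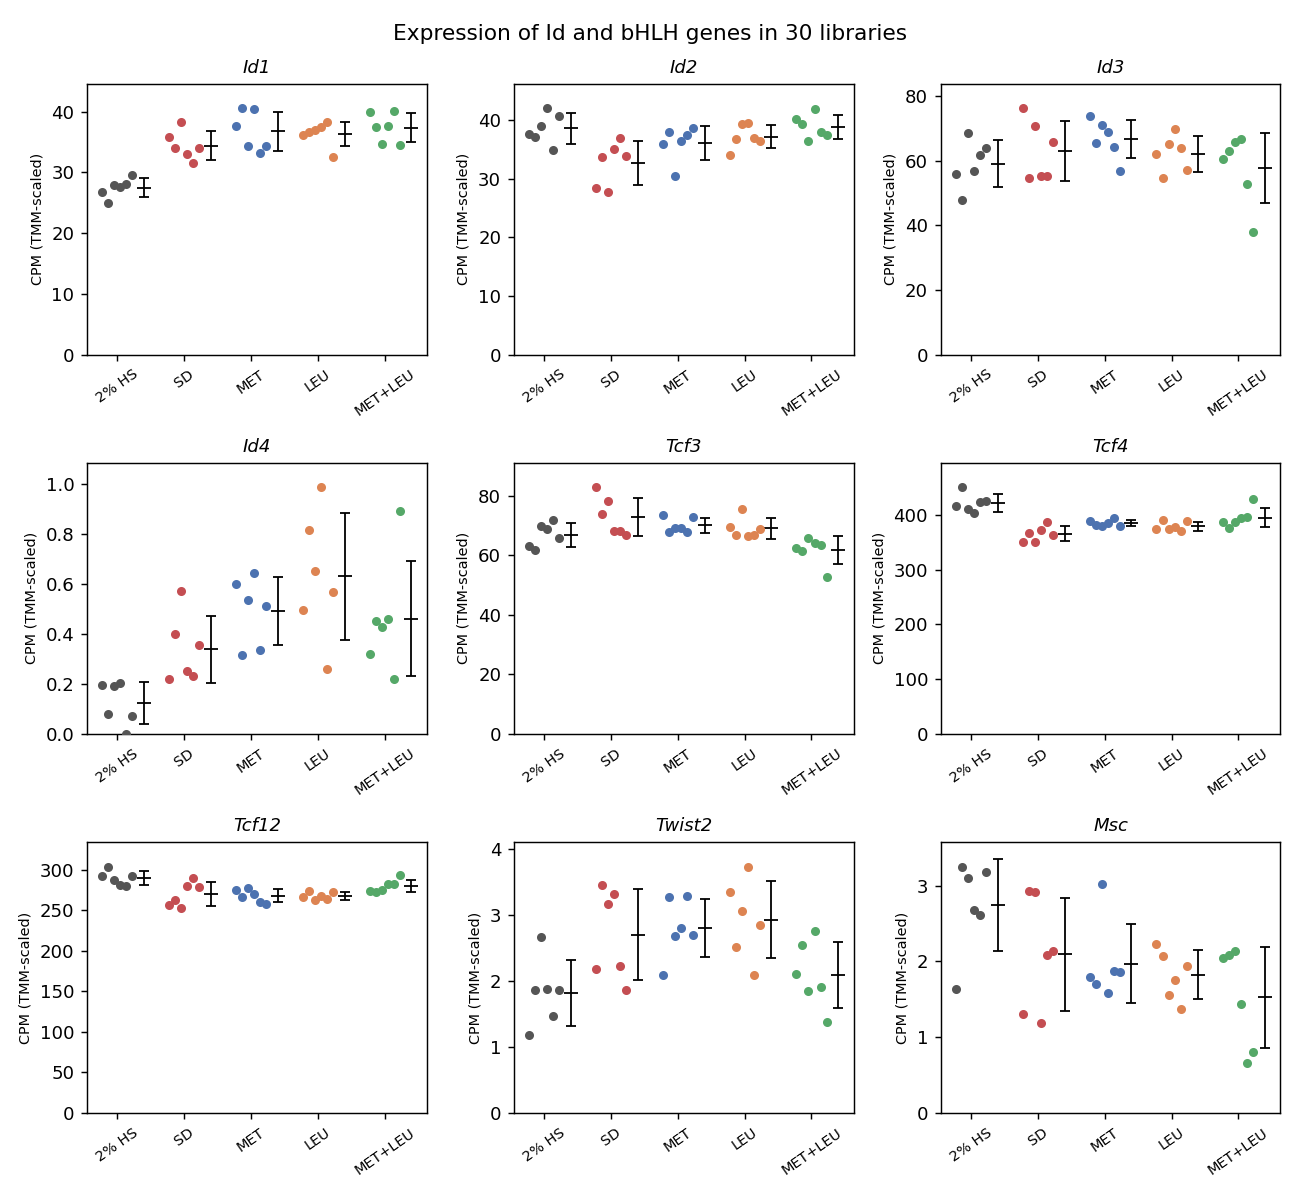
Expression (CPM, TMM-scaled, vertical axes from 0) of 9 of the 10 genes in each library, by condition; points are libraries and black bars are mean ± SD (n = 6). Id1 was higher in every SD library than in every 2% HS library, Tcf4 was lower, and Twist1 is not drawn because it had 0 counts throughout.

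Per kilobase of merged exons, the Id3 mRNA was highest in 2% HS (33.0 ± 4.05 CPM per kb, SD, n = 6), followed by Id1 (23.7 ± 1.33) and Tcf12 (18.7 ± 0.57). Tcf3 (16.6 ± 0.986), Id2 (15.8 ± 1.06) and Tcf4 (15.4 ± 0.593) followed and did not differ from each other beyond their spread, while every Tcf12 library lay above every Tcf3 library. Msc (1.08 ± 0.238), Twist2 (0.572 ± 0.158) and Id4 (0.0318 ± 0.0221) were far lower. The order of the upper genes rests on the length used, since Tcf4 has 27382 merged exon bases but a longest transcript of 8577. With the longest transcript, Tcf4 came first at 49.2 CPM per kb, ahead of Id3 (46.2) and Tcf12 (46.0), while Id1 stayed at 23.7.

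SD vs. 2% HS asked what withdrawal of serum did. Of the 8 tested genes, 5 passed an adjusted p of 0.05 (edgeR's quasi-likelihood test, Benjamini-Hochberg over all genes), 2 higher and 3 lower. Of all 15907 tested genes, 27.8% passed, 13.9% higher and 13.9% lower. Id1 and Twist2 rose, and Id2, Tcf4 and Tcf12 fell. The Id family therefore did not move as a block: Id1 rose, Id2 fell and Id3 did not pass the test.

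Id1 had a lowest, median and highest level of 24.9, 27.7 and 29.5 CPM in 2% HS and of 31.5, 34.0 and 38.3 CPM in SD. Every SD library lay above every 2% HS library, as was so for 6.17% of all tested genes. Id1 rose by 25.3% (log2 fold change 0.33, SE 0.06, adjusted p = 1.45e-05). Id2, an inhibitor that also binds retinoblastoma family proteins, ranged from 34.9 through a median of 38.4 to 42.1 CPM in 2% HS and from 27.8 through 33.8 to 37.0 CPM in SD. The groups overlapped, with SD replicates 1 and 3 the lowest of all 30 libraries. Its log2 fold change was -0.25 (SE 0.06, adjusted p = 0.00137).

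Id3 was the most variable of the 3 tested inhibitors. It spanned 47.8 to 68.5 CPM in 2% HS (median 59.2) and 54.5 to 76.2 CPM in SD (median 60.4), with broad overlap. Its log2 fold change of 0.09 (SE 0.11, adjusted p = 0.587) had a 95% interval from -0.13 to 0.31.

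Id4 was barely detected and was not tested in the main fit. Its counts were 0 to 4 per library in 2% HS (0 to 0.202 CPM) and 3 to 9 in SD (0.219 to 0.57 CPM). The counts overlapped. Only after scaling was the lowest SD library above the highest 2% HS library, as was so for 6.17% of tested genes. A count of 0 allows up to 3 counts, or 0.152 to 0.243 CPM depending on the library, a range that holds both of these levels. These limits cover counting error only. When genes with more than 5 counts in all were kept, its log2 fold change was 1.33 (SE 0.52, adjusted p = 0.0701). It also entered some fits that left out 1 library, where the adjusted p was 0.0364 without SD replicate 5, 0.0388 without 2% HS replicate 1 and 0.0597 to 0.0919 without others.

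Among the E proteins, Tcf4 (E2-2) gave the clearest difference. It ranged from 404 through a median of 420 to 451 CPM in 2% HS and from 351 through 366 to 388 CPM in SD. All SD libraries lay below all 2% HS libraries, as was so for 7.42% of tested genes, and the gene fell by 13.3% (log2 fold change -0.21, SE 0.03, adjusted p = 1.68e-06). Tcf12 (HEB) was at 280 to 304 CPM in 2% HS (median 290) and 253 to 290 CPM in SD (median 271). The groups overlapped, with SD replicates 1, 2, 3 and 6 below every 2% HS library. The log2 fold change was -0.10 (SE 0.03, adjusted p = 0.0152). The call was lost without SD replicate 3 (adjusted p = 0.0566) and when genes with more than 5 counts were kept (adjusted p = 0.0506).

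Tcf3, which encodes the E2A proteins E12 and E47, was at 61.8 to 71.8 CPM in 2% HS (median 67.4) and 66.9 to 82.9 CPM in SD (median 71.0). SD replicates 1, 2 and 3 lay above every 2% HS library, and the other SD libraries overlapped them. The log2 fold change was 0.13 (SE 0.05, adjusted p = 0.0535), just outside the threshold. It passed on leaving out any 1 of 2% HS replicates 3 and 5, SD replicates 4 to 6 and MET+LEU replicate 6 (adjusted p = 0.0289 to 0.0497), and was 0.222 without SD replicate 1. With a correction for each library's dependence on transcript GC content, added after the data were seen, the value was 0.08 (adjusted p = 0.0936), over 1.5 times smaller.

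The repressive factors had low counts or none throughout. Twist2, a dermal and mesenchymal repressor, had 18 to 42 counts per library in 2% HS (1.17 to 2.66 CPM, median 1.86) and 26 to 53 in SD (1.86 to 3.45 CPM, median 2.7). The groups overlapped, and the log2 fold change was 0.57 (SE 0.19, adjusted p = 0.0208). This call was lost on leaving out 2% HS replicate 1 (adjusted p = 0.0717) or SD replicate 2 (0.0648), 3 (0.0555) or 4 (0.0605). Msc had medians of 2.89 CPM in 2% HS (1.63 to 3.25) and 2.11 CPM in SD (1.19 to 2.92), and its log2 fold change of -0.40 (SE 0.22, adjusted p = 0.189) did not pass. Twist1 had 0 counts in all 30 libraries. By counting error alone, this allows at most 3 counts in each. Whether its mRNA was absent or its reads were not counted was not tested.

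**Figure D2:**
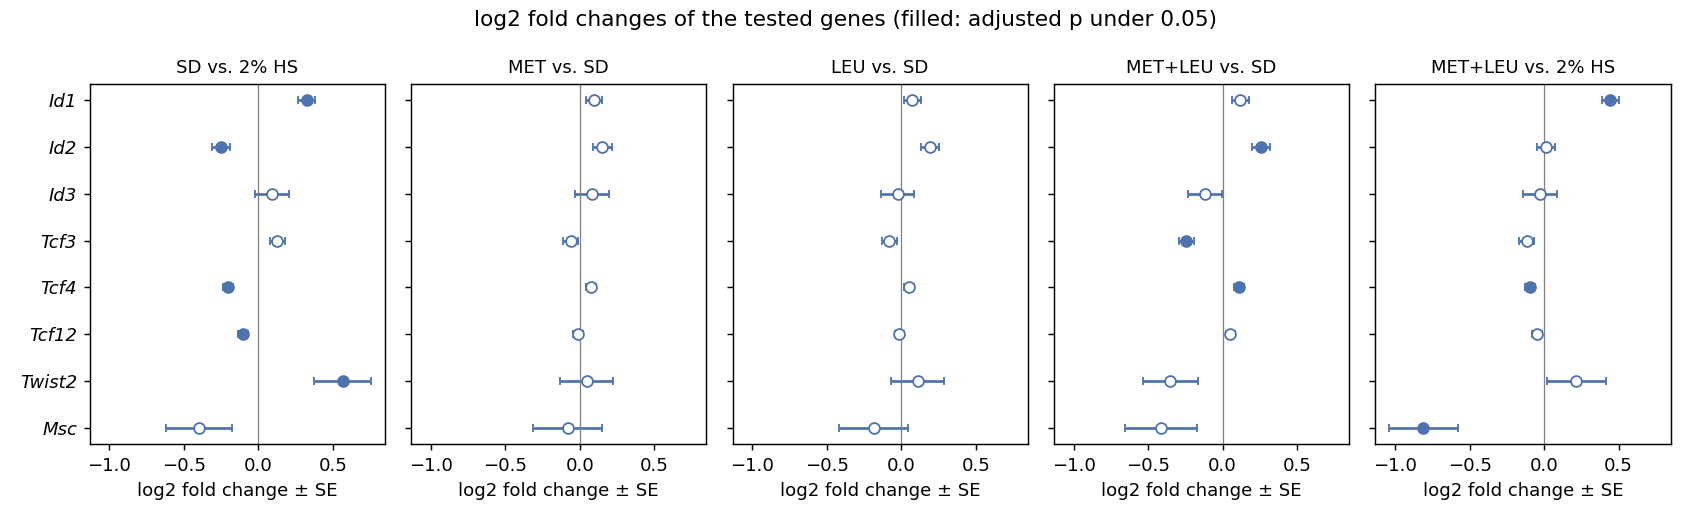
log2 fold change (horizontal axes, points) ± SE (bars) of the 8 tested genes (vertical axis) in 5 comparisons; filled points passed an adjusted p of 0.05. In SD vs. 2% HS 5 genes passed, in MET vs. SD and LEU vs. SD none did, and in MET+LEU vs. 2% HS the lowest value was that of Msc (-0.81).

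Next, each agent alone was compared with SD. With MET, 0 of the 8 genes passed (edgeR), beside 0.157% of all genes, and 2 had an unadjusted p under 0.05. With LEU, 0 passed, beside 0.553% of all genes, and 1 had an unadjusted p under 0.05. DESeq2 also called 0 in both comparisons. Id2 was among those with a low unadjusted p in each: its log2 fold change was 0.15 with MET (SE 0.06, unadjusted p = 0.0163, adjusted p = 0.367) and 0.19 with LEU (SE 0.06, unadjusted p = 0.00289, adjusted p = 0.168), both against the same SD libraries. Tcf4 was the other with MET (log2 fold change 0.08, SE 0.03, unadjusted p = 0.0251, adjusted p = 0.415). The 95% intervals, not adjusted for the number of genes, differed in width. For Id1, they ran from -0.01 to 0.21 with MET and from -0.04 to 0.19 with LEU, and for Tcf12 from -0.08 to 0.05 and from -0.08 to 0.05. Wider ones, in the same order, were those of Msc (-0.53 to 0.37 and -0.64 to 0.27) and Twist2 (-0.30 to 0.40 and -0.24 to 0.46). Id3 also had wide ones (-0.14 to 0.30 and -0.24 to 0.20). Those of Id2 lay above 0 (0.03 to 0.27 and 0.07 to 0.31), as did that of Tcf4 with MET (0.01 to 0.14).

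MET+LEU vs. SD asked what both agents together did to serum-deprived myotubes. Of the 8 genes, 3 passed, 2 higher and 1 lower, beside 18.4% of all tested genes (10.6% higher and 7.8% lower). Id2 and Tcf4 rose and Tcf3 fell. Id2 was at 36.4 to 42.0 CPM in MET+LEU (median 38.7) against the SD range of 27.8 to 37.0 given above. The groups overlapped only through MET+LEU replicate 3 and SD replicate 5, and Id2 rose by 19.7% (log2 fold change 0.26, SE 0.06, adjusted p = 0.00194). The call held in every fit that left out 1 library and in each other setting tried (adjusted p = 7.86e-04 to 0.0242).

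Tcf3 was at 52.7 to 65.8 CPM in MET+LEU, with a median of 63.0. All 6 libraries lay below the lowest SD library (66.9 CPM), as was so for 1.93% of tested genes. Tcf3 fell by 15.5% (log2 fold change -0.24, SE 0.05, adjusted p = 5.01e-04). Without MET+LEU replicate 6, the lowest library, the value was -0.21 (adjusted p = 0.00124). With the GC correction it was -0.12 (adjusted p = 0.0242), a smaller difference by more than 1.5 times.

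The rise of Tcf4 was less firm. Its MET+LEU libraries spanned 377 to 429 CPM (median 391) and overlapped the SD range of 351 to 388 CPM, with replicate 6 the highest. The log2 fold change was 0.11 (SE 0.03, adjusted p = 0.0121). It no longer passed without MET+LEU replicate 6 (0.08, adjusted p = 0.0741), SD replicate 1 (0.0547) or SD replicate 3 (0.0543), in a fit of the compared groups alone (0.0834), or with the GC correction (0.03, adjusted p = 0.508).

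The remaining genes did not pass in MET+LEU vs. SD. Id1 was at 34.6 to 40.1 CPM (median 37.5), and its log2 fold change of 0.12 (SE 0.06, adjusted p = 0.137) became 0.17 (adjusted p = 0.021) with the GC correction. Id3 ranged from 38.0 CPM in replicate 6 to 66.7 CPM, with a log2 fold change of -0.12 (SE 0.11, adjusted p = 0.514) that became -0.03 (adjusted p = 0.867) without replicate 6. Tcf12 was at 273 to 293 CPM, with a log2 fold change of 0.05 (SE 0.03, adjusted p = 0.284). Both low repressors had negative values that did not pass: Twist2 -0.35 (SE 0.19, adjusted p = 0.193) and Msc -0.41 (SE 0.24, adjusted p = 0.243).

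Relative to the fed cultures, MET+LEU vs. 2% HS passed for 3 of 8 genes, 1 higher and 2 lower, beside 42.3% of all tested genes (22.1% higher and 20.3% lower). Id1 was higher in all MET+LEU libraries than in all 2% HS libraries, as was so for 11.5% of tested genes, and rose by 36.1% (log2 fold change 0.44, SE 0.06, adjusted p = 1.51e-08). Tcf4 remained below 2% HS (-0.09, SE 0.03, adjusted p = 0.0163). Msc fell by 43.0% (log2 fold change -0.81, SE 0.23, adjusted p = 0.00405), from a median of 2.89 to 1.74 CPM. MET+LEU replicates 5 and 6, with 9 and 10 counts, were the lowest Msc libraries, and the groups overlapped through 2% HS replicate 1. Without replicate 5 the value was -0.67, and over all fits that left out 1 library the adjusted p lay between 0.00111 and 0.0146.

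Id2 had almost the same level in both conditions (log2 fold change 0.01, SE 0.06, adjusted p = 0.915, 95% interval -0.11 to 0.13), although it fell in SD vs. 2% HS and rose in MET+LEU vs. SD. Those comparisons share the SD libraries. Tcf3 did not pass (-0.12, SE 0.05, adjusted p = 0.0621), but did so on leaving out 2% HS replicate 1, 2 or 6 or MET+LEU replicate 3, 4 or 5 (adjusted p = 0.0221 to 0.0495). It was nearer 0 without MET+LEU replicate 6 (-0.09, adjusted p = 0.15) and with the GC correction (-0.04, adjusted p = 0.464). Tcf12 did not pass either (-0.05, SE 0.03, adjusted p = 0.23), but did with the GC correction (-0.08, adjusted p = 0.00828). Id4, with 3 to 11 counts per MET+LEU library, had a log2 fold change of 1.75 (SE 0.50, adjusted p = 0.00442) when genes with more than 5 counts were kept. Its highest level there was in MET+LEU replicate 6, at 0.891 CPM (others 0.22 to 0.459 CPM). Without that library Id4 did not pass the main filter, so no value without it is given.

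Against the single agents, Tcf3 was the 1 gene that passed, lower in both comparisons. It was lower in MET+LEU than in MET (log2 fold change -0.18, SE 0.05, adjusted p = 0.0184; 8.69% of all genes passed, 3.15% lower) and than in LEU (-0.16, SE 0.05, adjusted p = 0.045; 6.28% passed, 1.67% lower). The highest MET+LEU library, at 65.8 CPM, lay below the lowest MET library at 67.7 CPM and the lowest LEU library at 66.7 CPM, as was so for 1.28% and 0.861% of tested genes. Both calls depended on the processing. Without MET+LEU replicate 6 the adjusted p was 0.0515 and 0.123, and with the GC correction it was 0.153 and 0.424. The call against LEU was also lost without LEU replicate 1 (0.0598), 3 (0.12) or 6 (0.0678) or MET+LEU replicate 2 (0.0556), and in a fit of the compared groups alone (0.0692). The interaction of MET and LEU, which asks whether the combination departs from the sum of the single effects, passed for 0 of 8 genes by edgeR and by DESeq2, beside 0.0503% of all genes, and 0 had an unadjusted p under 0.05. The widest departure was that of Twist2 (-0.51, SE 0.26, unadjusted p = 0.0534, adjusted p = 0.576).

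The balance of inhibitor to partner mRNA was described by dividing the summed level of the 4 Id genes by that of the 3 E proteins, both per kilobase of merged exons. This ratio was 1.43 ± 0.112 in 2% HS (SD, n = 6), 1.6 ± 0.113 in SD and 1.72 ± 0.0928 in MET. It was 1.69 ± 0.116 in LEU and 1.69 ± 0.154 in MET+LEU. The 2% HS libraries spanned 1.23 to 1.54 and the SD libraries 1.47 to 1.73, with overlap. With the longest transcript as length, all ratios were lower (0.76, 0.867, 0.92, 0.899 and 0.874 in the same order), so whether Id mRNA exceeds E protein mRNA depends on the length chosen. 2% HS had the lowest mean under both lengths. In MET+LEU, replicate 6 had the lowest ratio by merged exons (1.40, others 1.65 to 1.80). The ratio was not computed with the GC correction, and the part of GC content in it was not tested.

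**Figure D3:**
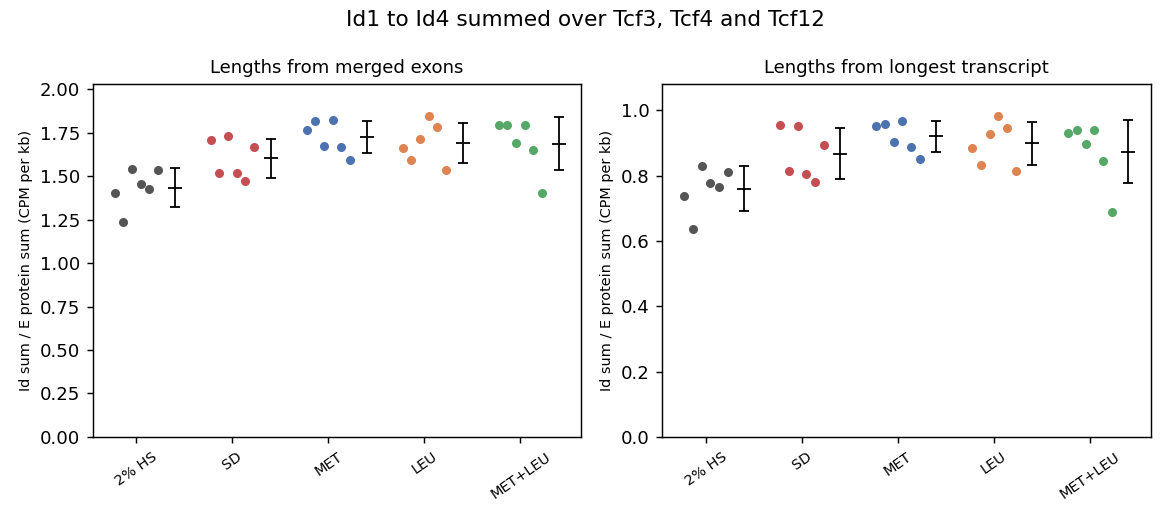
Summed Id1 to Id4 level divided by summed Tcf3, Tcf4 and Tcf12 level (CPM per kb, vertical axes from 0) in each library, with lengths from merged exons (left) or the longest transcript (right); points are libraries, black bars mean ± SD (n = 6). 2% HS had the lowest mean in both panels (1.43 and 0.76).

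The myogenic bHLH factors, which pair with E proteins, changed at the level of 2 of 4 genes in SD vs. 2% HS. Of all tested genes, 27.8% passed there. Myod1, the myoblast determination factor, fell from 329 ± 18.9 to 271 ± 29.4 CPM (log2 fold change -0.28, adjusted p = 4.11e-04). Myf6 (MRF4), a factor of late differentiation, fell from 7.72 ± 1.71 to 4.67 ± 0.259 CPM (-0.73, adjusted p = 8.32e-05). Myog (0.05, adjusted p = 0.309) and Myf5 (-0.12, adjusted p = 0.265) did not pass, and in MET+LEU vs. SD 0 of 4 did. Of 23 other tissue-restricted bHLH genes, 3 passed the filter and 0 of these passed the test in either comparison.

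The Hes, Hey and Bhlhe40/41 repressors are a separate bHLH branch that includes Notch target genes. All 6 tested members of 12 listed fell in SD vs. 2% HS, beside 13.9% of all genes, with a median log2 fold change of -0.23 against 0.00 over all genes. Heyl fell from 136 to 85.3 CPM (-0.68, adjusted p = 1.02e-13), Hey1 from 10.6 to 7.20 CPM (-0.56, adjusted p = 4.59e-05) and Bhlhe40 from 352 to 297 CPM (-0.25, adjusted p = 3.96e-07). In MET+LEU vs. SD, Hey1 fell further, to 5.03 CPM (-0.51, adjusted p = 0.00121), and the other 5 did not pass. With MET alone, Bhlhe40 fell by 0.19 on the log2 scale (adjusted p = 0.0159); this gene was singled out after its values were seen.

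**Figure D4:**
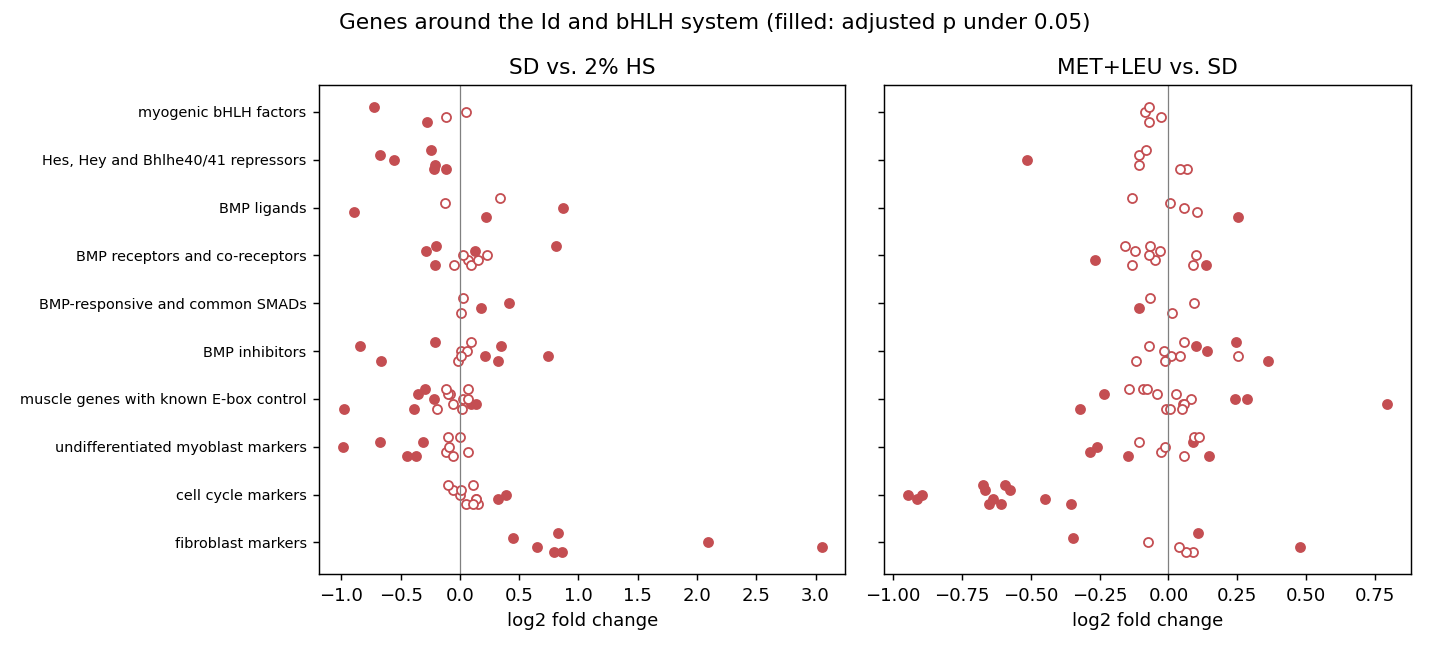
log2 fold changes (horizontal axes, on separate scales) of each tested gene in 10 lists (vertical axis) in SD vs. 2% HS and MET+LEU vs. SD; filled points passed an adjusted p of 0.05. All 6 Hes, Hey and Bhlhe40/41 genes lay below 0 in SD vs. 2% HS, and all 12 cell cycle markers lay below 0 in MET+LEU vs. SD.

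The mRNAs of BMP pathway genes moved in both directions, and signalling itself was not measured. In SD vs. 2% HS, where 27.8% of all genes passed, 2 of 5 tested ligands rose and 1 fell: Bmp6 fell from 50.9 to 27.4 CPM (log2 fold change -0.89, adjusted p = 2.08e-15), while Bmp8a rose from 1.95 to 3.59 CPM (0.87, adjusted p = 1.04e-05) and Bmp4 rose (0.22, adjusted p = 0.031). Of 11 receptors and co-receptors, 2 rose (Acvrl1 0.81, Acvr1 0.12) and 3 fell (Rgma -0.29, Hjv -0.21, Rgmb -0.20). Among the signal-carrying SMADs, Smad9 (0.42, adjusted p = 0.00791) and Smad5 (0.17, adjusted p = 2.08e-04) rose, and the remaining 2 did not pass.

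BMP inhibitors also split, with 4 of 12 higher and 3 lower in SD vs. 2% HS. The secreted antagonists Chrd (-0.85, adjusted p = 1.69e-13), Grem1 (-0.67, adjusted p = 5.36e-10) and Chrdl1 (-0.21, adjusted p = 5.00e-04) fell. Fstl1 (0.35) and Smad6 (0.32), an intracellular inhibitor that BMP signalling itself induces, were among those that rose. In MET+LEU vs. SD, where 18.4% of all genes passed, 4 of 12 rose and 0 fell, led by Grem1 (0.36, adjusted p = 1.62e-04), Chrdl1 (0.25, adjusted p = 2.07e-04) and Fst (0.14, adjusted p = 0.00815). Of the other BMP genes in that comparison, Bmp4 (0.25, adjusted p = 0.014) and Acvr2a (0.14, adjusted p = 0.0411) rose, while Bmpr1b (-0.27, adjusted p = 0.0295) and Smad5 (-0.11, adjusted p = 0.035) fell.

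Muscle genes with known E-box control did not follow 1 direction. In SD vs. 2% HS, 2 of 16 rose (Des 0.13, Chrna1 0.09) and 5 fell, beside 13.9% of all tested genes in each direction. Ckm, muscle creatine kinase, fell from 308 to 156 CPM (-0.98, adjusted p = 6.25e-10), and the fusion peptide gene Mymx (-0.39) and the cadherin gene Cdh15 (-0.36) also fell. In MET+LEU vs. SD, 3 rose (Tnni2 0.79, Myl1 0.29, Mef2c 0.24) and 2 fell (Mymx -0.32, Cdh15 -0.23). Of all tested genes, 10.6% rose and 7.8% fell there. Tnni2 varied widely in MET+LEU, at 427 ± 139 CPM against 246 ± 23.2 CPM in SD. Values of these genes without MET+LEU replicate 6 are not given.

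Marker lists for other cell states were read beside these results. Of all tested genes, 13.9% rose and 13.9% fell in SD vs. 2% HS. In MET+LEU vs. SD, 10.6% rose and 7.8% fell. Of 11 tested myoblast markers, 5 fell in SD vs. 2% HS, led by Notch3 (-0.98), Heyl (-0.68) and Vcam1 (-0.44), and in MET+LEU vs. SD 3 fell (Notch1 -0.29, Notch3 -0.26, Itga7 -0.15) and 2 rose (Vcam1 0.15, Megf10 0.09). All 12 cell cycle markers fell in MET+LEU vs. SD, led by Aurkb (-0.95), Aurka (-0.91) and Ccnb1 (-0.89), with a summed level of 209 to 284 CPM in SD and 150 to 182 CPM in MET+LEU. In SD vs. 2% HS, Aurkb (0.39) and Birc5 (0.32) rose and the other 10 did not pass. Fibroblast-type markers were led in SD vs. 2% HS by Dpt (3.05), Lum (2.10) and Postn (0.86), and in MET+LEU vs. SD Dcn (0.48) and Col3a1 (0.11) rose while Col1a1 (-0.35) fell. Of 3 tested osteoblast markers, Phex rose in both comparisons (0.42 and 0.51). The 2 tested adipocyte markers did not pass in either, and the defining genes Adipoq, Fabp4 and Plin1 did not pass the filter. The part of these cell states in the Id and bHLH results was not tested.

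Within conditions, the E protein mRNAs did not vary together. Over 30 libraries, after subtraction of condition means, Pearson's r was 0.74 for Tcf4 with Tcf12, but -0.71 for Tcf3 with Tcf12 and -0.66 for Tcf3 with Tcf4. Id3 followed Tcf3 (0.67) and ran against Tcf4 (-0.74). The longest transcripts of Tcf3 and Id3 had 61.0% and 55.6% GC. Those of Tcf12 and Tcf4 had 44.4% and 40.9%. After a per-library GC correction the r values above were 0.12, -0.29, 0.21, 0.03 and -0.15 in that order. Some other pairs moved less, such as Id1 with Tcf4 (-0.51 to -0.44) and Twist2 with Msc (0.39 to 0.36). Before the correction, r was only 0.19 for Msc (58.2% GC) with Tcf3 and 0.20 for Id2 (45.1% GC) with Tcf4. The part of GC content in these correlations was not tested. The dependence of expression on GC content ran from -0.21 in MET+LEU replicate 6 to 0.18 in SD replicate 1 (change in log2 CPM per 10 points of GC). Without MET+LEU replicate 6 and without the correction, r was 0.72 for Tcf4 with Tcf12 and -0.68 for Tcf3 with Tcf12 (29 libraries). Of the pairs named first, the others moved more, to -0.53 for Tcf3 with Tcf4, 0.51 for Id3 with Tcf3 and -0.62 for Id3 with Tcf4.

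**Figure D5:**
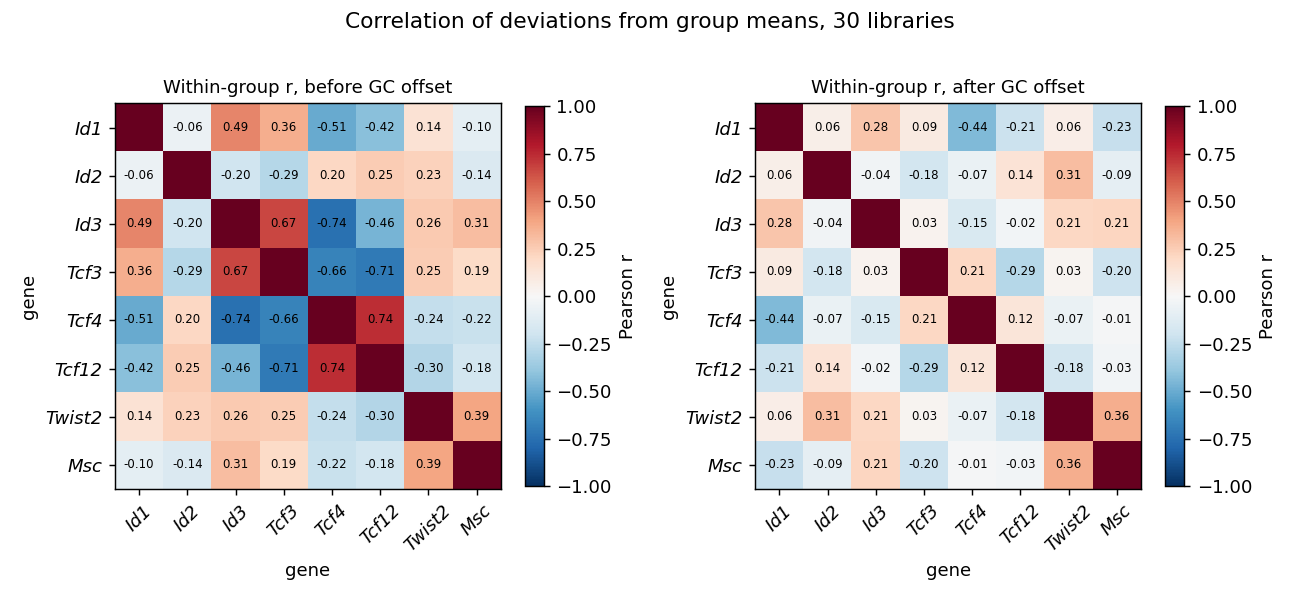
Pearson's r between the 8 tested genes (both axes) over 30 libraries after subtraction of condition means, before (left) and after (right) the GC correction; colour gives r from -1 to 1. Tcf4 with Tcf12 went from 0.74 to 0.12 and Tcf3 with Tcf4 from -0.66 to 0.21.

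Upstream sequence is shown for the E protein genes Tcf3 and Tcf12, because E-boxes are the sites that their own products bind. RefSeq promoter windows (GRCm38.p6) matched 7 of the 10 genes. Both windows shown run from 250 to 53 bases before the start, on the minus strand, at chr10:80433688-80433885 for Tcf3 and chr9:72111872-72112069 for Tcf12. Capitals mark matches, on either strand, to the E-box CANNTG, the SMAD-binding GGCGCC, the Egr core GTGGGCG or the CRE part TGACG. The shorter SMAD-binding GTCT was also searched, was found in 76.3% of all windows, and is not marked.
Tcf3: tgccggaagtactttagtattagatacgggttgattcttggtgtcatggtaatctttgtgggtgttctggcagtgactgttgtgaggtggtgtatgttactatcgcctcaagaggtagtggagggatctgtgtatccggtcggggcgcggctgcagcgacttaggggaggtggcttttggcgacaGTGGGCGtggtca
Tcf12: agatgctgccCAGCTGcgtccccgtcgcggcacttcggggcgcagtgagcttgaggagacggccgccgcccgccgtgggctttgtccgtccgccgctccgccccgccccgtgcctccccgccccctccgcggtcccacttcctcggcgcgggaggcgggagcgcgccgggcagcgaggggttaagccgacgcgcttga

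RefSeq gave 3 windows for Tcf12. The one shown held 1 E-box and, of the others, 1 held 1 and 1 held 0, while 58.7% of 32851 windows of the same length held at least 1. The Tcf3 window held 0 E-boxes and 1 GTGGGCG, the latter found in 4.84% of windows. In the Id2 window there was 1 E-box and 1 GGCGCC (7.04% of windows). The Id3, Id4 and Twist1 windows each held 1 TGACG (12.5%) and no E-box, and the Id4 window also held 1 GGCGCC. These matches describe letters only.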

How the data were processed

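RNA was sequenced from 30 C2C12 libraries (5 conditions, 6 each). The authors deposited raw counts per gene. The submitters' processing notes name cutadapt 1.16, STAR 2.7.6a, featureCounts 1.6.3, DESeq2 1.30.1 and GRCm38; the annotation release and strand setting are not given in the sources used here. Of 55487 identifiers, 55227 matched GENCODE M21, which gave symbols, lengths and GC content.

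Counts were analysed in R 4.3.3 with edgeR 4.0.16: filterByExpr (minimum count 10, total 15; 15907 genes), TMM scaling, 1 quasi-likelihood fit of all libraries with a mean per condition, and 8 contrasts with Benjamini-Hochberg adjustment at 0.05. The SE is the absolute log2 fold change divided by the square root of F. CPM are TMM-scaled, and log2 CPM used a prior count of 2. Procedures were tested on simulated data. The 10 genes and all lists were chosen with earlier results of these data known. From other lists, up to 3 called genes per direction with the largest change in SD vs. 2% HS and MET+LEU vs. SD were named, and all 4 myogenic factors; 2 genes that these rules select are not reported here. Alternatives were other scalings, a weaker filter, DESeq2 1.42.0, compared groups alone, a replicate block and leaving out each library; a lowess correction for GC content (99.8% of tested genes had a value) was added after seeing the data. Figures used Python 3 with matplotlib.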

Additional observations from a re-analysis of the deposited data

Results flagged for a closer look

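Within conditions of 6 libraries, 6 levels stood apart from the other 5 of their group by Dixon's test. This test flags about 1 in 20 groups by chance. Of 50 gene and condition combinations, those of Twist1 could not be tested because all counts were 0. Tcf3 was at 52.7 CPM in MET+LEU replicate 6, where the others lay between 61.6 and 65.8 CPM, and at 75.8 CPM in LEU replicate 3, where the others lay between 66.7 and 69.4 CPM. Id4 was at 0.891 CPM in MET+LEU replicate 6 (others 0.22 to 0.459 CPM). Id1 was at 32.5 CPM in LEU replicate 6 (others 36.1 to 38.2 CPM). MET replicate 3 held the lowest Id2 level of its group, 30.5 CPM (others 36.0 to 38.6 CPM), and the highest Msc level, 3.02 CPM (others 1.58 to 1.88 CPM).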

How the results depend on the processing

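Counts of changed genes stayed within 1.5 times of the main count under each other setting that kept all libraries, except against MET and LEU alone. There they fell from 1 to 0 in MET+LEU vs. MET with the GC correction, and from 1 to 0 in MET+LEU vs. LEU with the GC correction and in a fit of the compared groups alone. On leaving out 1 library, the count ranged from 3 to 7 in SD vs. 2% HS (3 without SD replicate 3, where Tcf12 and Twist2 lost their calls), from 3 to 5 in MET+LEU vs. 2% HS (5 without 2% HS replicate 1, 2 or 6 or MET+LEU replicate 3 or 5, where Tcf3 passed and Id4 was tested and passed), and from 0 to 1 against MET and against LEU. Without MET+LEU replicate 6 both of the last were 0, and Id4 was not tested. Replicate numbers did not pair the samples (mean r of same-numbered deviations 0.0157, range -0.0913 to 0.142); with the replicate block, 6 genes passed in SD vs. 2% HS, whereas 4 did in MET+LEU vs. 2% HS, Tcf3 being added in each (adjusted p = 0.0436 and 0.0474), and the other counts did not move.

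Signs turned only for values near 0 that did not pass, over the comparisons and genes followed. Against MET and LEU alone, only Tcf3 was followed in every setting. There Tcf4 turned with the GC correction, from 0.036 to -0.019 and from 0.058 to -0.011, and did not pass. Tcf12 in MET+LEU vs. SD was -0.0014 with the GC correction. In MET+LEU vs. 2% HS, Id2 was -0.016 with upper-quartile scaling and -0.021 with the GC correction, and Id3 was 0.0041 with the latter. Over fits without 1 library, Tcf12 ranged from -0.027 to 0.013 in MET vs. SD and from -0.028 to 0.012 in LEU vs. SD, Twist2 from -0.032 to 0.13 and Msc from -0.23 to 0.045 in MET vs. SD, Id3 from -0.058 to 0.044 in LEU vs. SD, and in MET+LEU vs. 2% HS Id2 from -0.025 to 0.029 and Id3 from -0.089 to 0.055. Tcf3 in MET+LEU vs. 2% HS passed with upper-quartile scaling (-0.14, adjusted p = 0.0199), and Tcf12 did with the GC correction (-0.08, adjusted p = 0.00828).

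Upper-quartile scaling lowered the share of higher genes among all calls from 63.7% to 49.8% in MET+LEU vs. MET and from 73.4% to 53.9% in MET+LEU vs. LEU. The causes were not tested. Depth limits Id4, Twist2 and Msc, with at most 54 counts in any library.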

Other observations

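For each tested gene, the genes with the most similar log2 CPM over the 30 libraries, among 12698 genes, were listed as a description; the points share libraries, conditions and GC dependence. Id1 was most like Prss23, Lpl and Cilp (Pearson's r 0.89 each), and Id3 most like Ccar2, Loxl1 and Wdr6 (0.87, 0.87 and 0.86). Id2 had a looser match, led by Arl15 (0.73), Gm15801 (0.70) and Golga1 (0.68). Tcf3 was most like Sbf1, Arhgdia and Hist1h4h (0.88 each), Tcf4 most like Gm40841, Rbms1 and Sh3glb1 (0.90, 0.90 and 0.89), and Tcf12 most like Fnip1, Creb1 and Memo1 (0.86 each). For the low genes, the genes most like Twist2 included Susd6 (0.76) and Kctd7 (0.71), and Msc was most like Tubb2b (0.73), Mdfi (0.72) and Pim1 (0.72). With LEU alone, 4 of 12 cell cycle markers fell, singled out after their values were seen: Ccnb1 (log2 fold change -0.70), Ccna2 (-0.54), Aurkb (-0.50) and Top2a (-0.46). Of all tested genes, 0.553% passed in LEU vs. SD in either direction.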
